A study of Mus musculus with 3 samples.

Results

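Interferon receptors, the factors that carry their signal and 25 interferon-stimulated genes, 34 genes in all, were followed in intestinal epithelial cells (IEC) from small intestinal organoids (SIO) that had grown beside group 3 innate lymphoid cells (ILC3). The members were a list of names and were not chosen by their levels, although the list was made with earlier results of these data known. All 34 were matched by symbol to 1 gene each among the 35824 genes of the count table. SIO are crypt-derived epithelial structures grown in matrix, here from female CD45.1 mice on a C57BL/6 background whose age the labels give as 6 to 8 weeks. ILC3 came from the small intestinal lamina propria of GFP reporter mice. All 3 libraries, named A, B and C, share the same treatment, 4 days of co-culture in R-spondin, Noggin and EGF medium with β-mercaptoethanol, IL-2, IL-7 and IL-15, after which IEC were sorted by FACS. As a model it is epithelium with added ILC3, without the stroma and other immune cells of the gut. IEC ONLY cultures were not analysed here, so no effect of ILC3 on any of these genes is given. The labels call A, B and C biological replicates without saying whether they came from separate mice or cultures. In tests of C against A and B, the spread behind p-values comes from A and B, with information shared across genes. That spread may be technical, and it holds no estimate of how libraries like C vary.

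Interferons are antiviral cytokines of 3 types with separate receptors. Type I interferons bind IFNAR1 with IFNAR2, type III interferons bind IFNLR1 with IL10RB, and interferon-γ binds its own receptor pair. Type I and type III receptors use JAK1 and TYK2 to activate STAT factors, STAT2 among them, which join IRF9 on the interferon-stimulated response element (ISRE), while interferon-γ signals to the gamma-activated site (GAS). In the gut the epithelium is the main responder to type III interferon. Many interferon-stimulated genes are kept low until an interferon is sensed, whereas the receptors and several of the factors are made all the time.

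The libraries held between 17946361 and 28913885 counts. Library C, which the labels mark as left out of the final analysis, stood apart: it was the deepest and yet had at least 10 counts for the fewest genes, 11986 against 12549 in A and 12964 in B. Values are therefore given over A and B first, and then for C. The 16 epithelial markers examined, Epcam and Krt8 among them, all had at least 10 counts in every library. Muc2, the goblet cell mucin, was lower in C (log2 fold change -2.23, edgeR adjusted p = 0.0228). Ptprc, which encodes the leukocyte antigen CD45, had 1 count in A and 0 in B and C. The ILC3 and lymphocyte list of 20 genes summed to between 54.5 and 86.0 counts per 1000000 counts of the library (CPM), and 9 of its genes were at 0 in every library. Il22, Il23r and Ncr1 were among these 9. Of the 20 genes, 11 had under 10 counts in every library, these 9 included, and 3 had at least 10 counts in every library. The rest had at least 10 counts in some libraries only. The myeloid and B cell list of 14 genes summed to between 24.9 and 52.2 CPM, highest in C, with Adgre1, Itgax and Cd79a at 0 in every library. The stroma and endothelium list of 12 genes summed to 4.91, 6.79 and 1.78 CPM, and 8 of its genes, Col1a1, Pdgfra and Cdh5 among them, were at 0 throughout. Of this list Vim, which encodes vimentin, had 46, 135 and 0 counts and was called lower in C (edgeR adjusted p = 0.0612), and Pdgfrb had 24, 0 and 44 counts. The part of these markers in the results for C was not tested.

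The ISRE is a sequence by which STAT and IRF factors reach many interferon-stimulated genes, so the promoter windows of the members were read for it. RefSeq windows of 300 bases on GRCm38.p6, 250 before to 50 after a transcription start, were found for 28 of the 34 members. The ISRE core (GAAA, NN and GAAA in a row), read on either strand and counting overlapping matches, was present for 14 of these 28 members (50%) and for 3.99% of the 27025 genes with a window. The GAS core TTCNNNGAA was present for 10 of the 28 members (35.7%) and for 9.55% of all genes. The short stretches shown here are from the 5 members with a core and the highest level per length (Bst2, Irf2, Ddx58, Ifih1 and Stat2) and, chosen after their values were seen, from 3 members that were scarce in A and B (Isg15, Ifit1 and Ifit3). Each stretch is written 5′ to 3′ on the strand of the gene, with the ISRE core in capitals.
Bst2: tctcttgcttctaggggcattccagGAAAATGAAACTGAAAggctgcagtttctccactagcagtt
Irf2: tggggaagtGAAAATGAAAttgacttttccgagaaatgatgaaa
Ddx58: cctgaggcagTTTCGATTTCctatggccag
Ifih1: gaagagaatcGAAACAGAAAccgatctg
Stat2: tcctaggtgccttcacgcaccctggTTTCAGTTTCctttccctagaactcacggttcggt
Isg15: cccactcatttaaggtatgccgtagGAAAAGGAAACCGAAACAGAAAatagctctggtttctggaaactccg
Ifit1: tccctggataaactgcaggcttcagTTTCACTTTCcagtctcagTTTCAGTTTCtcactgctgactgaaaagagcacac
Ifit3: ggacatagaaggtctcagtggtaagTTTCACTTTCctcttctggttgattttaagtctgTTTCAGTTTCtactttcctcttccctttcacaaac

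The stretch of Bst2 lies on the minus strand at chr8:71537562-71537627 and that of Irf2 on the plus strand at chr8:46739495-46739538. Ddx58 was read at chr4:40239804-40239833 (minus), Ifih1 at chr2:62646206-62646233 (minus) and Stat2 at chr10:128270251-128270310 (plus). Isg15 was read at chr4:156200850-156200921 (minus), Ifit1 at chr19:34640760-34640838 (plus) and Ifit3 at chr19:34583348-34583441 (plus). The cores of Ddx58 and Ifih1 start after the transcription start, at positions 3 and 33. In Isg15 the cores run into one another, with matches starting at positions -78, -72 and -66 from the transcription start. In Bst2 they start at -130 and -124, and in Ifit1 and Ifit3 a pair of cores is set apart, at -104 and -85 and at -156 and -122. Windows with a core thus belonged both to members read in every library and to members near 0. The windows of the 3 receptors held no ISRE core, and a match is a description of letters, not a binding site.

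Of the 34 members, 16 had at least 10 counts in every library, a share of 47.1% beside 50.1% of protein-coding genes and 31.4% of all genes. Both the receptors (3 of 3) and the STAT and IRF factors (6 of 6) were read throughout. Among the effectors the count was 3 of 10 for the IFIT and ISG group, 2 of 5 for the OAS and MX genes and 2 of 4 for the nucleic acid sensors. None of the 6 interferon-inducible GTPases and chemokine had 10 counts in every library, and 3 of them, Ifi47, Gbp2 and Gbp3, were at 0 throughout. Within these 34 members, the receptors and the STAT and IRF factors were thus read throughout, and most of the other members were not. This did not hold for effectors in general. Of 53 other interferon-stimulated effectors listed for comparison, 31 had at least 10 counts in every library.

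**Figure D1:**
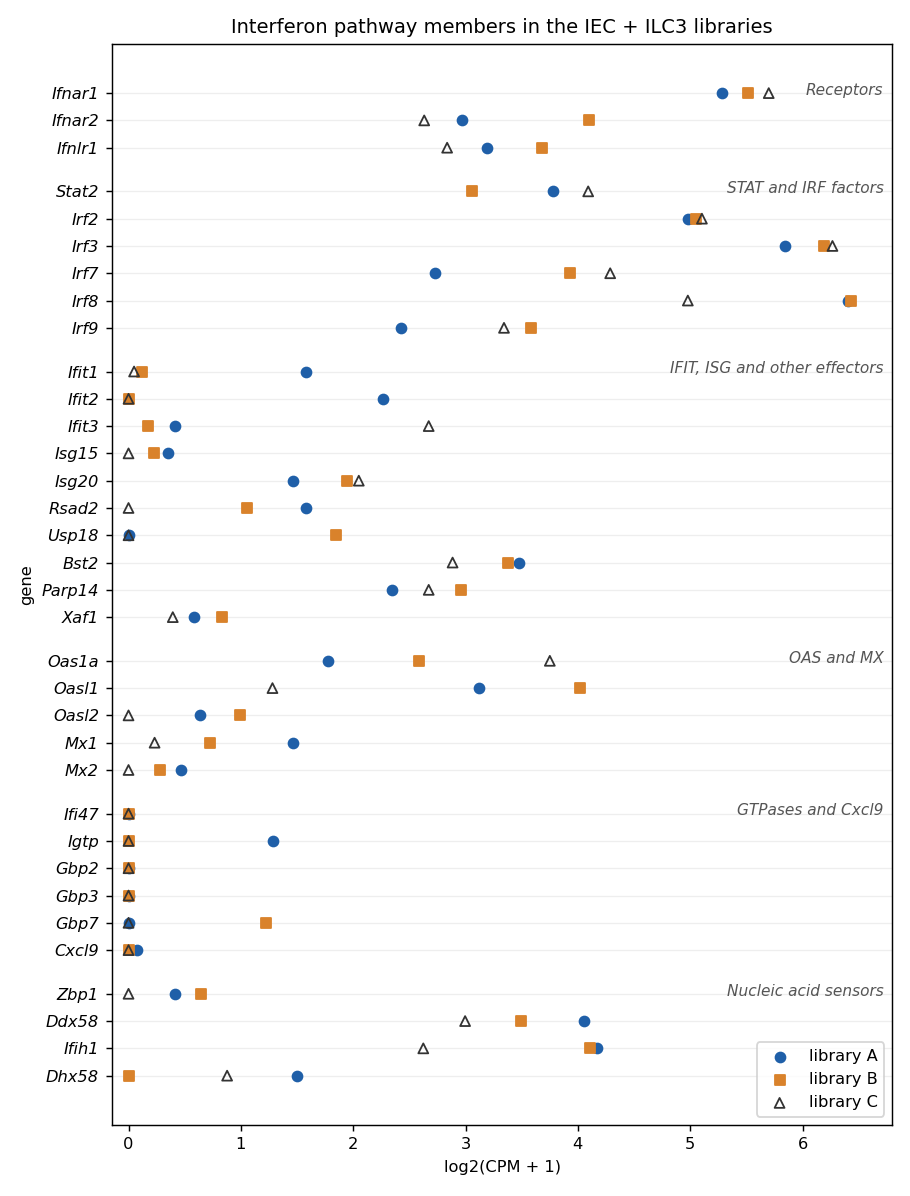
Level of each of the 34 members as log2(CPM + 1) in library A (blue circles), B (orange squares) and C (open triangles), grouped by role. Receptors and STAT and IRF factors lie away from 0 in every library, while Ifi47, Gbp2 and Gbp3 lie at 0 in all 3 and Irf8 lies lower in C.

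Type I and type III interferon receptor chains were read in every library, and of the 3 members Ifnar1 was highest per length. Ifnar1 and Ifnar2 lie on chromosome 16 of GRCm38, from 91485238 to 91507441 and from 91372783 to 91405589, and Ifnlr1 on chromosome 4 from 135686287 to 135708181. Ifnar1, one chain of the type I receptor, was at 37.9, 44.8 and 50.9 CPM in A, B and C, a mean of 41.4 ± 4.86 CPM over A and B (SD, n = 2) and 44.6 ± 6.51 CPM with C (SD, n = 3). Ifnar2, its partner chain, was at 6.84, 16.2 and 5.20 CPM in A, B and C, so A and B differed by 2.37-fold. Of its 31-base words, the unit by which overlap between transcripts was measured, 8.497% also occur in Gm21970. Ifnlr1, the chain particular to the type III receptor, was at 8.11, 11.9 and 6.14 CPM in A, B and C. For Ifnar2 and Ifnlr1 library C lay below A and B, and for Ifnar1 it lay above them.

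Levels of different genes were compared only per length, as CPM per kilobase of the longest annotated transcript. On that scale Ifnar1 was at 10.6 ± 1.24 over A and B, Ifnar2 at 3.78 ± 2.17 and Ifnlr1 at 2.39 ± 0.633 (SD, n = 2). The ranges of Ifnar2 (2.25 to 5.31) and Ifnlr1 (1.94 to 2.84) overlapped, and both lay below that of Ifnar1 (9.70 to 11.5). The second chain of the type III receptor, Il10rb, which is shared with the IL-10 and IL-22 receptors, was at 28.3 ± 8.16 CPM per kilobase. Ifngr1, the ligand-binding chain for interferon-γ, was higher than all of these at 163 ± 53.8 CPM per kilobase, and its partner Ifngr2 was at 47.6 ± 3.13.

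The interferon genes themselves were almost without counts. Of 21 listed interferon genes, 19 were at 0 in every library, among them Ifnb1, Ifnl2, Ifnl3, all listed Ifna genes and Ifng. ILC3 can make the cytokine of Ifng, but these libraries are of sorted IEC and do not show whether ILC3 in the culture made it. Ifnk had 3, 1 and 0 counts in A, B and C, and Ifnz had 17 in B and 0 in A and C. A gene at 0 may still have been present at low levels, and the floor of 3 counts that bounds folds against such a gene is 0.166, 0.130 and 0.105 CPM in A, B and C. Floors and intervals cover counting error only, because PCR copies could not be told from separate molecules.

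Of the 6 STAT and IRF factors, Irf3 and Irf8 had the highest levels per length of all members over A and B. In C, Irf8 was at 8.80 CPM per kilobase, below Irf3 (37.4) and Ifnar1 (13.0). Irf3, which is made constitutively and activated when nucleic acid sensors fire, lies on chromosome 7 of GRCm38 and was at 56.4, 72.2 and 76.0 CPM in A, B and C. Irf2, which competes with IRF1 at interferon-responsive promoters, was the most even of them, at 30.5, 32.1 and 33.4 CPM. Per length, Irf3 was at 31.7 ± 5.51 CPM per kilobase over A and B, a range of 27.8 to 35.6, and Irf2 at 7.89 ± 0.276. Among genes with at least 10 counts in a library, Irf3 stood at percentile 78.6 in A, 83.6 in B and 81.1 in C per length.

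The factors of the ISRE-binding complex were lower and less even. Stat2 was at 12.7, 7.31 and 16.1 CPM in A, B and C, so it was 1.74-fold higher in A than in B. Irf9, the DNA-binding part of the complex, went the other way with 4.36, 11.0 and 9.14 CPM in A, B and C. The ratio of B to A was 2.52 for Irf9, and it was 2.53 for Irf7, the factor that amplifies type I interferon production, at 5.63, 14.2 and 18.5 CPM in A, B and C. Irf7 and Irf9 were thus lowest in A and Stat2 lowest in B, so the subunits did not rank the libraries alike.

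Irf8, a factor best known from myeloid and B cell development, was level between A and B, and C lay below both. It lies on chromosome 8 from 120736358 to 120756694 and had 1520, 1965 and 875 counts in A, B and C, which are 83.9, 85.0 and 30.5 CPM. Against A and B, C was lower by a log2 fold change of -1.47 (standard error 0.31), with an adjusted p of 0.0562 by the quasi-likelihood test of edgeR. With a trend in GC content removed the log2 fold change was -1.42 and the call was lost (adjusted p = 0.117, edgeR). Per length, Irf8 stood at percentile 76.1 in A, 77.9 in B and 52.8 in C. With C, the mean moved from 84.5 ± 0.812 CPM (SD, n = 2) to 66.5 ± 31.1 CPM (SD, n = 3). In this bulk RNA, fewer cells that express a gene and less RNA of it per cell cannot be told apart. Csf1r had 1 count in A and 0 in B and C, and Itgam had 48, 0 and 92. Cd79b, a B cell receptor subunit, had 44, 79 and 0 counts and was the 1 gene of the myeloid and B cell list called, lower in C as Irf8 was (edgeR adjusted p = 0.0851), and Cd68 had 14, 19 and 0 counts. The list's sum was highest in C (24.9, 29.1 and 52.2 CPM), and Cd14 made 17.2, 23.0 and 44.0 CPM of it. The part of these genes in the level of Irf8 was not tested.

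The call for Irf8 was 1 of 2 among the members. Of the 34, 28 passed the filter on low counts, and edgeR's quasi-likelihood test called Irf8 and Oasl1 lower in C and 0 members higher, at an adjusted p under 0.1. Over all 13604 genes tested 6.56% were called, 5.2% lower and 1.36% higher, so 2 of 28 is near the background. At an adjusted p under 0.05 edgeR called 0 members beside 2.03% of all genes (0.11% higher, 1.92% lower). The Wald test of DESeq2 called 5 members, with Ifit3 higher and Irf8, Oasl1, Ifih1 and Rsad2 lower, beside 12.1% of all genes (2.96% higher, 9.17% lower). An unadjusted p under 0.05 was found for 6 of the 28 members and for 22.3% of all genes. This compares libraries and not conditions, and with 1 library against a pair it has 1 residual degree of freedom per gene. The median log2 fold change of the tested members was -0.95 beside -0.10 over all genes tested. It includes 7 members at 0 in C that passed the filter only through A or B, and in a fit restricted to genes with at least 10 counts in every library it was 0.015 over 16 members.

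**Figure D2:**
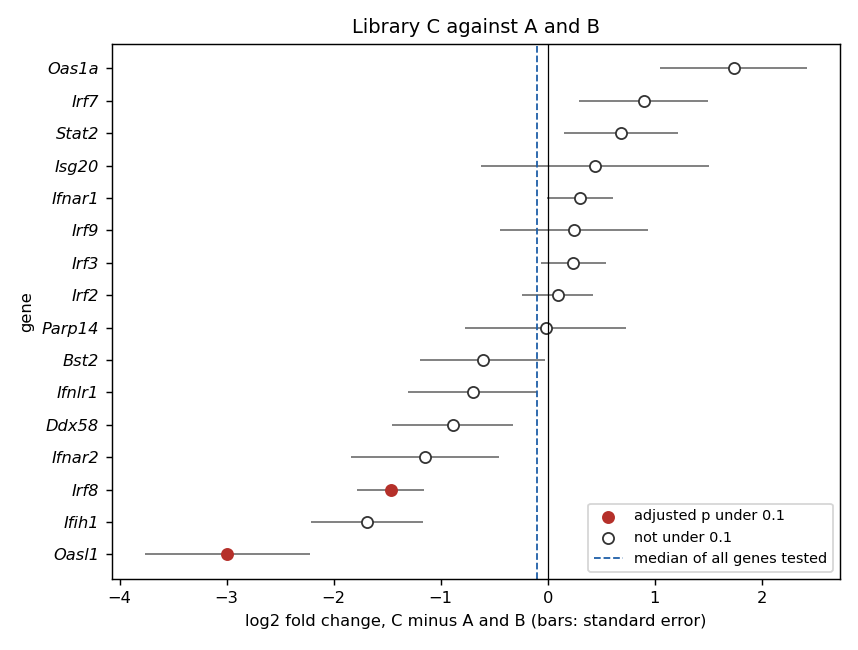
Log2 fold change of library C against A and B, with its standard error, for the 16 members with at least 10 counts in every library; red points have an adjusted p under 0.1 from edgeR and the dashed line is the median of all genes tested (-0.10). Irf8 and Oasl1 are called lower, and Ifih1, at -1.69, and Oas1a, at 1.74, are not called.

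Of the nucleic acid sensors, Ifih1 and Ddx58 were read in every library, and Dhx58 and Zbp1 were each at 0 in a library. Ifih1, which encodes MDA5, was at 17.1, 16.2 and 5.16 CPM in A, B and C. Its log2 fold change in C was -1.69 (standard error 0.52), with an adjusted p of 0.123 from edgeR, which misses the threshold. Ddx58, which encodes RIG-I, was at 15.6, 10.3 and 6.98 CPM, so A lay 1.52-fold above B and C lay below both. Per length the pair could not be ranked, with Ddx58 at 2.65 to 4.03 and Ifih1 at 2.97 to 3.12 CPM per kilobase in A and B. Dhx58, which encodes LGP2, a regulator of both, had 33, 0 and 24 counts in A, B and C. Zbp1, a sensor of Z-form nucleic acids that can start necroptosis, had 6, 13 and 0 counts, at most 0.563 CPM.

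Myd88, the adaptor of most Toll-like receptors, was at 52.9, 55.4 and 69.5 CPM. The adaptor Mavs, through which RIG-I and MDA5 signal, was at 56.6, 73.7 and 31.6 CPM in A, B and C. The kinase Tbk1, which phosphorylates IRF3, was at 46.0, 53.9 and 51.8 CPM. Of the 13 matched genes of the adaptor list, 11 had at least 10 counts in every library. The exceptions were Tlr7 and Tlr9, endosomal receptors of immune cells, which were at 0 throughout.

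Oasl1 and Oas1a, members of the oligoadenylate synthetase family, lay on opposite sides of A and B in library C. Oasl1, which in mouse restrains translation of Irf7, lies on chromosome 5 from 114923240 to 114937915 and had 139, 351 and 41 counts in A, B and C. These are 7.67, 15.2 and 1.43 CPM, so A was 5.36-fold and B 10.6-fold above C. Per length Oasl1 was at 5.24 ± 2.44 CPM per kilobase over A and B (SD, n = 2). Its log2 fold change in C was -3.00 (standard error 0.77), with an adjusted p of 0.0883 in the edgeR fit. The call was lost with other scalings, at adjusted p = 0.104 with factors taken from all genes and 0.102 with DESeq2 size factors in edgeR, and with the GC trend removed (log2 fold change -2.82, adjusted p = 0.146, edgeR).

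Oas1a, a synthetase whose product activates RNase L, had 44, 116 and 357 counts in A, B and C. These are 2.43, 5.02 and 12.5 CPM, so B was 2.07-fold above A and C was highest. Its log2 fold change in C was 1.74 (standard error 0.69) with an adjusted p of 0.192 from edgeR. Of the 31-base words in the Oas1a transcripts, 68.8% also occur in another gene, nearly all of them in Oas1g, so the split between these genes is uncertain, although Oas1g was listed at 0 in every library. Oasl2 had 10, 23 and 0 counts. Oas2 had 0, 37 and 0 counts and Oas3 had 33, 28 and 3, so the larger synthetases were scarce too.

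Mx1 and Mx2 encode dynamin-like antiviral GTPases, and C57BL/6 mice carry a defective Mx1. Mx1 had 32, 15 and 5 counts in A, B and C, which are 1.77, 0.649 and 0.174 CPM, a 2.72-fold difference between A and B. Its log2 fold change in C, -2.75, had a standard error of 2.07 and was not called. Mx2 had 7, 5 and 0 counts, and 7.96% of its words are shared with Mx1.

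Among the remaining effectors Bst2 had the highest level per length. Bst2, or tetherin, which holds budding virions at the membrane, was at 10.1, 9.39 and 6.39 CPM in A, B and C. Per length it had rank 3 among the members, at 12.3 ± 0.633 CPM per kilobase over A and B, a range (11.9 to 12.7) just above that of Ifnar1. In C the order of the pair was reversed, 8.06 against 13.0 CPM per kilobase. Parp14, a mono-ADP-ribosyltransferase, was at 4.08, 6.79 and 5.37 CPM, and Isg20, an exonuclease, at 1.77, 2.86 and 3.14 CPM. Xaf1, a pro-apoptotic factor, had 9, 18 and 9 counts.

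In the order of levels per length over A and B, Irf3 came first, then Irf8, Bst2, Ifnar1, Irf2 and Oasl1. The ranges of A and B did not overlap between neighbours in this order. Below Oasl1 they did: from Oasl1 through Ifnar2, Ddx58 and Irf7 to Ifih1, and from Ifnlr1 through Stat2, Isg20 and Irf9 to Oas1a, each range overlapped that of the next. The range of Ifih1 (from 2.97) lay just above that of Ifnlr1 (to 2.84), and that of Oas1a above Parp14. The order was set with the longest annotated transcript, and the transcripts in use in these cells were not examined.

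Of the ISG15 system, Isg15 itself was close to the floor. Uba7 and Ube2l6 of this system were read in every library, while Herc6 had 0, 21 and 58 counts in A, B and C. In A, B and C Uba7 was at 24.9, 17.7 and 30.6 CPM and Ube2l6 at 14.9, 8.44 and 18.8 CPM. Isg15, a ubiquitin-like protein that is among the most strongly induced interferon targets, had 5, 4 and 0 counts in A, B and C. In CPM these are 0.276 with a 95% Poisson interval of 0.0896 to 0.644, 0.173 with 0.0472 to 0.443, and 0 with an upper limit of 0.129. Of its 31-base words, 12.8% occur in other genes. Usp18, which removes ISG15 from proteins and dampens IFNAR signalling, was read in 1 library only. Its 60 counts in B are 2.60 CPM with an interval of 1.98 to 3.34, and A and C, both at 0, were at least 15.7-fold and 24.8-fold lower against the floor of 3 counts per library. Rsad2, or viperin, an antiviral radical enzyme, had 36, 25 and 0 counts in A, B and C, so A was 1.84-fold above B and the mean of A and B at least 14.7-fold higher than C.

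The IFIT genes, whose proteins bind viral RNA, were each read mainly in a single library. Ifit2 had 69 counts in A and 0 in B and C, so A was at least 29.3-fold above B and 36.4-fold above C. Ifit1 had 36, 2 and 1 counts, which put A 23.0-fold above B with a counting interval of 5.91 to 197. Ifit3 had 6, 3 and 154 counts, which are 0.331, 0.130 and 5.37 CPM. Ifit1 and Ifit2 were thus highest in A and Ifit3 in C, although the 3 genes lie close together on chromosome 19, between 34550694 and 34650009 on GRCm38.

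The counts of Ifit3 cannot be read alone, as 61.8% of its 31-base words occur in Ifit3b. Ifit3b had 21, 24 and 0 counts in A, B and C, and the pair summed to 27, 27 and 154 counts. These sums are 1.49, 1.17 and 5.37 CPM, so C was above A and B for the sum as well. The log2 fold change of Ifit3 alone was 4.53 (standard error 1.30), with an adjusted p of 0.108 from edgeR. Ifit1 shares 9.16% of its words with Ifit1bl2, one of its neighbours, which had 343, 262 and 424 counts, and Ifit1bl1 had 202, 119 and 458. These Ifit1-like genes were read in all libraries while Ifit1 itself was near 0 in B and C.

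**Figure D3:**
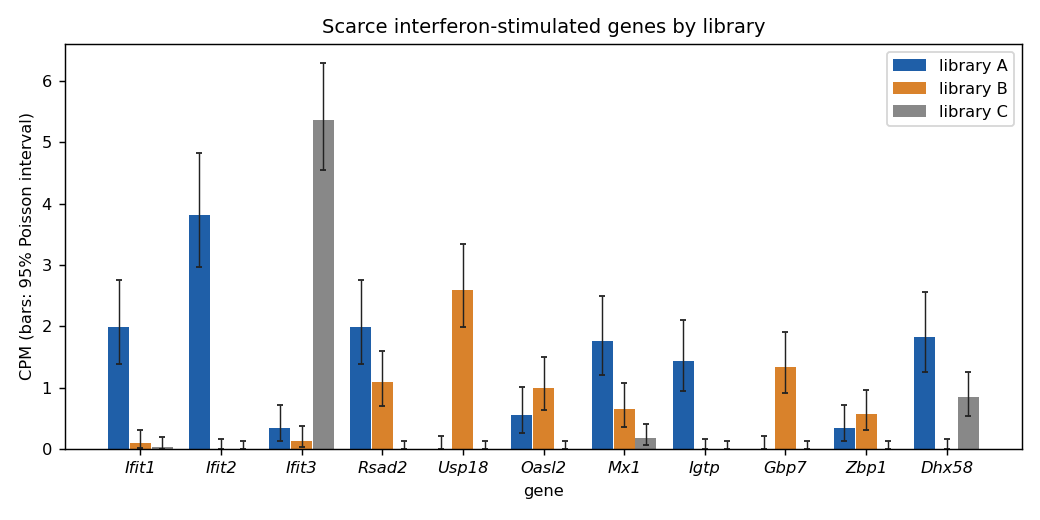
Level in CPM of 11 scarce members in libraries A (blue), B (orange) and C (grey), with exact 95% Poisson intervals that cover counting error only. Ifit2 and Igtp were read in A alone, Usp18 and Gbp7 in B alone, and Ifit3 mainly in C, at 5.37 CPM.

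The interferon-γ-inducible GTPases of the immunity-related and guanylate-binding families, which act on vacuoles that hold pathogens, were the least detected. Ifi47, Gbp2 and Gbp3 were at 0 in every library, with 95% Poisson upper limits of 0.204, 0.160 and 0.129 CPM in A, B and C. Igtp had 26 counts in A and 0 in B and C, and 15.9% of its words occur in Irgm2, which had 21, 0 and 4 counts. Gbp7 had 31 counts in B and 0 in A and C. Cxcl9, the interferon-γ-induced chemokine, had 1 count in A, or 0.0552 CPM with an interval of 0.0014 to 0.308, and 0 in B and C. Of 17 other interferon-inducible GTPases and chemokines, 11 were at 0 throughout, and Irgm1 and Gbp5 alone had at least 10 counts in every library. Irgm1 was at 24.8, 24.7 and 25.99 CPM, and Gbp5 had 21, 26 and 29 counts. Cxcl10, a chemokine induced by each type of interferon, had 8, 27 and 56 counts, which are 0.442, 1.17 and 1.95 CPM.

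Some scarce members were read in 1 library and at 0 in another. Of the 28 members with at least 10 counts in a library, 8 were at 0 in another (Ifit2, Rsad2, Usp18, Oasl2, Igtp, Gbp7, Zbp1 and Dhx58), or 28.6% beside 12.1% of all such genes. All 8 had at most 100 counts. Among the genes whose highest count lay between 10 and 100 the share was 8 of 12 for the members and 47.8% for all 3021 such genes, so such gaps were common among low counts in general. The library at 0 was not always the same, being C for 7 of the 8, B for 3 and A for 2. Without C, 5 members had such a gap, and without B there were 4. For these 8 genes, a mean over libraries does not describe any of them.

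The spread between A and B was also read over the members. Of the 19 members with at least 10 counts in both, 5 differed by more than 2-fold (26.3% beside 11.8% of 11989 genes). The 5 were Irf7, Irf9, Ifnar2, Oas1a and Mx1, the last of these higher in A. Of the 19, 13 were higher in B (68.4% beside 48.6% of the 11989 genes). No comparison with all genes here was matched for count level, and some members had few counts, such as Mx1 with 32 in A and 15 in B. The median absolute log2 difference between A and B was 0.73 for the members and 0.35 for all genes, without a replicate check, since each side is 1 library. Among the 16 members with at least 10 counts in every library, the lowest value was in A for 8, in B for 1 and in C for 7, beside 26.2%, 35.0% and 38.8% of all 11232 such genes.

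Other genes of the pathway were read unevenly by role. Of 140 further genes listed, 139 were matched, 71 had at least 10 counts in every library and 40 were at 0 throughout. At least 10 counts in every library were found for 6 of 6 receptor chains and kinases, 11 of 13 STAT and IRF factors and inhibitors and 11 of 13 adaptors. The same held for 31 of 53 effectors, 10 of 16 antigen presentation genes, 2 of 17 GTPases and chemokines and 0 of 21 interferons. Of the 87 tested, 3 were called, all lower in C (3.45%, beside 6.56% of all genes). Irf1, a factor induced by interferon-γ, was at 122, 143 and 58.1 CPM (log2 fold change -1.19, edgeR adjusted p = 0.0875). Helz2, a helicase-like coactivator, was at 14.4, 22.8 and 2.72 CPM (log2 fold change -2.77, edgeR adjusted p = 0.0584). Pml, the nuclear body protein, was at 26.5, 26.1 and 8.55 CPM (log2 fold change -1.62, edgeR adjusted p = 0.0942). All 3 lay lower in C, as Irf8 and Oasl1 did. Stat3, which carries IL-22 signals, was at 109, 113 and 85.3 CPM.

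**Figure D4:**
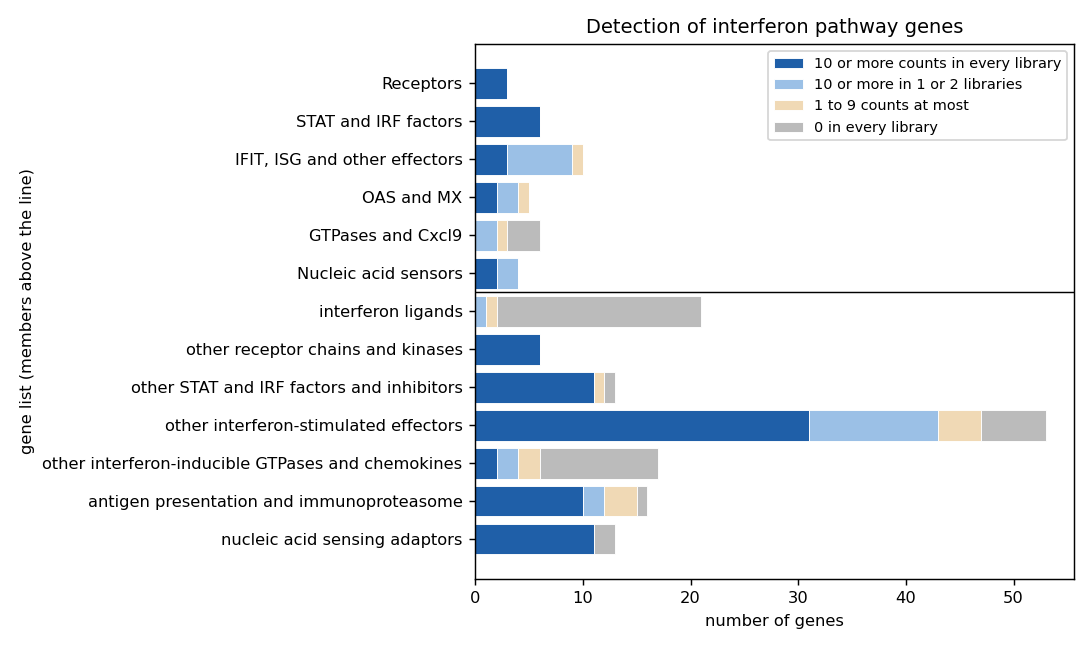
Number of genes in each member group (above the line) and each further pathway list (below it) by detection: at least 10 counts in every library, in 1 or 2 libraries, 1 to 9 counts at most, and 0 in every library. All 9 receptors and STAT and IRF factors are in the first class, and 19 of 21 interferon genes are in the last.

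Some interferon-inducible effectors were abundant. Lgals9, a galectin, was at 933, 825 and 895 CPM in A, B and C. Ifitm2 and Ifitm3, membrane proteins that block viral fusion, were at 204, 266 and 312 CPM and at 128, 218 and 191 CPM. Of the antigen presentation genes, H2-K1, a class I heavy chain, was at 792, 641 and 611 CPM, and B2m, the class I light chain, at 308, 337 and 296 CPM. Psme2, a proteasome activator subunit, was at 187, 177 and 300 CPM. The immunoproteasome subunits differed. Psmb10 was at 96.7, 101 and 169 CPM and Psmb9 at 7.12, 5.41 and 7.47 CPM, while Psmb8 had 0, 20 and 0 counts. By contrast the class II transactivator Ciita had 1, 0 and 0 counts. The class II genes H2-Aa and H2-Ab1 had 6, 0 and 0 counts and 0 throughout. H2-K1 and B2m were thus abundant in libraries in which these class II genes had few counts or none. Other genes of the same list were low or scarce too. In A, B and C, Tap1 was at 6.79, 9.87 and 7.78 CPM and Tap2 at 13.8, 6.45 and 5.20 CPM. Nlrc5 had 0, 6 and 0 counts and Cd74 had 21, 0 and 0.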

How the data were processed

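RNA of IEC sorted from SIO and ILC3 co-cultures was made into 3 SMART-Seq2 libraries. The authors trimmed reads with Trimmomatic 0.39 and ran Salmon 0.14.1 on Ensembl transcripts of GRCm38.p6, versions that the submitters' processing notes also list, and tximport gave gene totals. The deposited values are thus estimated counts, already whole. Salmon divides reads shared by similar genes, so the split within such pairs is uncertain. No source used here states whether strand was used.

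Symbols, positions, transcript lengths and 31-base words came from GENCODE M21 on GRCm38, which gave a symbol to 35436 of 35824 genes. One further pathway name, Mb21d1, was not matched. Genes were filtered with filterByExpr, and CPM used TMM factors (edgeR 4.0.16, R 4.3.3). Library C was tested against A and B, groups that the labels give, by edgeR's quasi-likelihood test with Benjamini-Hochberg adjustment over all genes at 0.1, the study's threshold. Standard errors are log2 fold changes over the root of F, without sign. The test was tried 3 times on simulated counts of the same 3 libraries, with 200 of 13604 genes changed. A mean of 13172 genes passed the filter, and changed genes that did not pass counted as not found. The test found 59.0% of 4-fold and 83.3% of 16-fold changes, and 11.7% of its calls were false. In these counts the spread of a gene between libraries followed the trend with level alone, so the rates may differ for real counts. Poisson intervals are exact at 95%, and those of ratios are exact conditional ones. Promoter windows are RefSeq's.

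The members and lists were chosen with earlier results of these data known. All members are named. Some genes of the further lists are counted in them but not reported singly here. Values in every library were set for those called, the 6 highest per length, those under 10 counts in every library and the 4 with the largest ratio between A and B in each direction. Further pathway genes were named if among the 3 highest per length of a list or called, and others after their values were seen. Alternatives were DESeq2 size factors, plain totals, TMM factors from all genes (added after seeing the data), other filters, the Wald test of DESeq2 1.42.0, a threshold of 0.05, removal of loess trends with length or GC content (span 0.5), and leaving out each library.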

Additional observations from a re-analysis of the deposited data

How the results depend on the processing

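The number of members called in C (2) was 1 with DESeq2 size factors and 1 with TMM factors from all genes, where Oasl1 was lost, 8 with no filter on low counts, 5 by the Wald test of DESeq2, 0 with the GC trend removed and 0 at a threshold of 0.05. Irf8 was called in every fit at 0.1 except the one with the GC trend removed (log2 fold change -1.42, adjusted p = 0.117 from edgeR). Over all genes the calls (185 higher, 707 lower) became 2402 with no filter (825 higher, 1577 lower), 1618 by DESeq2 (395 higher, 1223 lower), 156 with the GC trend removed (5 higher, 151 lower) and 276 at 0.05 (15 higher, 261 lower). With at least 10 counts in every library 1030 were called (344 higher, 686 lower). Ifit3 was called under plain totals and no filter in edgeR (adjusted p = 0.0902 and 0.0123) and by DESeq2 (adjusted p = 0.062).

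The median log2 fold change of the members (-0.95) was 0.015 over members with at least 10 counts in every library, and it ranged from -0.66 to -0.56 when A or B was left out, values with no test. Parp14 turned from -0.02 to 0.26 with the length trend removed and was called in neither. Members with at least 10 counts in every library numbered 16 to 19 when a library was left out, and members with a count of 10 in one library and 0 in another 4 to 6. No paired analysis was possible because the replicate numbers of the groups compared, 1 and 2 against 3, are not shared. For members at 0, depth allows levels up to the Poisson upper limits given.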
